A study of Mus musculus with 8 samples.

Results

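Glycolysis, lactate handling and the entry of pyruvate into mitochondria were followed through 35 genes in ventricular tissue of mice heterozygous for a deletion in Pkp2 (HET, 4 samples) and of wild-type mice (WT, 4 samples). The genes were given as a list of names, from glucose transporters to the pyruvate dehydrogenase complex and its control, and all 35 were found among the 38293 genes of the deposited count table. All 35 also passed the filter on low counts, which left 14567 genes. The series title names the deletion as c.1755delA in PKP2, while the genotype label gives the same position without "del" and another base is named as deleted in the title of the count table. Tissue of the left ventricle was mixed with that of the right in each sample, the mice were 8 weeks old, and poly(A) RNA was sequenced from Trizol extracts. The labels used here do not state strain, sex, number of animals or litters, and each p-value therefore covers the spread of these samples alone, which may be technical.

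Glycolysis splits glucose into pyruvate in the cytosol, and muscle and non-muscle cells use different isozymes for several of its steps. Pyruvate is either reduced to lactate by lactate dehydrogenase or carried into mitochondria and oxidised by the pyruvate dehydrogenase complex, which kinases switch off and phosphatases switch on. The adult heart mainly burns fatty acids, takes up lactate from blood, and raises its use of glucose under load or injury.

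Library totals ran from 32397302 to 38611008 counts in HET and from 38510257 to 41234883 in WT, and a member held between 43 and 116385 counts in a library. Pkp2, which encodes the desmosomal protein plakophilin-2, had 99.2, 88.2, 96.0 and 106 CPM (counts scaled to a common library size) in HET and 169, 168, 148 and 166 CPM in WT, library by library. Its log2 fold change was -0.74 (SE 0.065, Benjamini-Hochberg adjusted p = 0.00376 from the quasi-likelihood test of edgeR). Ventricular cardiomyocyte markers summed to 61923 to 64236 CPM in HET and 58111 to 62722 CPM in WT, and atrial markers to 222 to 466 CPM in HET and 273 to 358 CPM in WT. Almost all of the atrial sum was Nppa, at 218 to 461 CPM in HET and 269 to 352 CPM in WT. The atrial markers Myl7 and Sln stood at 0.112 CPM or less in every library, so the sum follows Nppa and is no measure of atrial tissue. Skeletal muscle markers, whose tissue shares isozymes with the heart, summed to 23.7 to 37.4 CPM in HET and 27.0 to 45.9 CPM in WT. Erythroid, endothelial, fibroblast, smooth muscle, macrophage and adipocyte markers overlapped between the groups in their summed level. Their ranges were 302 to 392, 937 to 1064, 657 to 815, 285 to 394, 142 to 161 and 0.674 to 7.20 CPM in HET, and 211 to 495, 917 to 1155, 703 to 801, 262 to 379.9, 148 to 212 and 0.529 to 1.52 CPM in WT, with the adipocyte marker Lep at 0 in all 8 libraries. The WT replicate 3 library stood apart, with 14.7% of counts from mitochondrially encoded genes against 17.1% to 19.1% in the other 7. In such bulk tissue, fewer cells of a type and less RNA per cell cannot be told apart.

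None of the 35 genes passed the test between HET and WT (0 higher and 0 lower by the edgeR test, where 0.00686% of all genes were called, namely Pkp2 alone). The smallest adjusted p of a member was 0.770 by edgeR, and DESeq2, which called 0.0892% of all genes, and limma-voom, which called 0.00686%, also called 0 members. At an unadjusted p under 0.05, 5 members had the higher mean in HET and 0 had the lower one. These were Slc2a4, Pgam1, Pdha1, Dld and Pdk2, which makes 14.3% of the members, where 2.75% of all genes tested met that mark with HET higher and 3.63% with HET lower (6.38% in both directions). DESeq2 gave 8 members at that mark, where 6.5% of all genes met it. With library-size scaling the edgeR fit gave 3 members, and the share over all genes was not computed for that scaling. Over all alternatives the number ran from 3 to 8. The 4 HET libraries lay wholly above the 4 WT libraries for 4 members (11.4%), Eno3, Pdha1, Dld and Pdk2, and wholly below them for 0, against 1.7% and 2.08% of all genes (3.78% in both directions). These counts rest on TMM scaling of the libraries. With counts divided by library totals alone, the groups of Eno3 and Pdha1 overlapped, and those of Dld and Pdk2 stayed apart.

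Abundant genes as a whole leaned the same way, so the counts above are to be read beside theirs. Among the 1371 genes at 100 CPM or more, 73.0% had a positive log2 fold change (median 0.042), 7.73% had an unadjusted p under 0.05 with HET higher, and 4.96% had groups apart with HET higher. Of the 26 members at that level, 21 were positive (median 0.072), 4 had an unadjusted p under 0.05 and 4 had groups apart, all with HET higher. Of the 9 members under 100 CPM, 2 were positive. Over all 35 members 23 log2 fold changes were positive and the median was 0.039, against 48.5% positive and a median of -0.0038 over all genes tested. With library-size scaling in place of TMM, which moved the median of all genes to -0.047, 17 members were positive and 32.7% of all genes were. Ventricular cardiomyocyte markers, themselves abundant, had positive log2 fold changes for 5 of 6 (median 0.020). Those of Myl2, Actn2, Myl3 and Tnni3 lay between -0.0012 and 0.025, and those of Myh6 and Tnnt2 were both 0.12. Positive too were 6 of 6 erythroid and 4 of 4 smooth muscle markers, and the 3 adipocyte markers tested (median 1.64), which were of low level. The count was 3 of 6 for endothelial markers and 1 of the 3 tested for both atrial and skeletal muscle markers. It was 0 of 5 for macrophage and 0 of 6 for fibroblast markers. Myh6, the main myosin heavy chain of the adult mouse ventricle, had 35213 to 37635 CPM in HET and 32744 to 34207.5 CPM in WT. Cd68, a macrophage marker, had 7.70 to 8.73 CPM in HET and 9.11 to 14.2 CPM in WT. The groups lay apart for both (unadjusted p = 0.0101 and 0.00878, adjusted p = 0.770 by edgeR), and the part of the cell types in the members' values was not tested. Without WT replicate 3 the number of positive members was again 23, and 5 members had groups apart (14.3%), all with HET higher, where 8.41% of all genes did in both directions and 4.07% with HET higher.

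**Figure D1:**
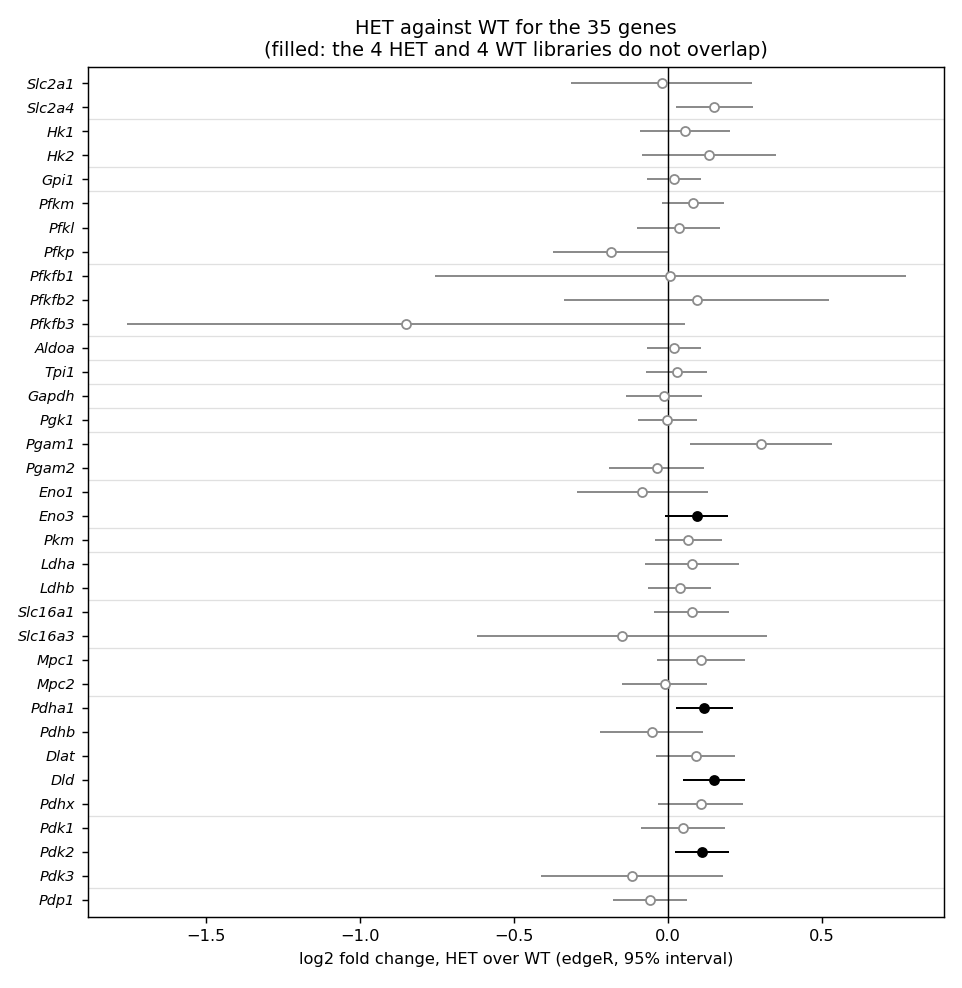
Log2 fold change of HET over WT for each of the 35 genes (x axis) in pathway order (y axis), with 95% intervals from edgeR on 4 libraries a group; filled points are the 4 genes whose groups did not overlap. Most intervals of abundant genes lie within a narrow band around 0, and the wide ones belong to Pfkfb1, Pfkfb2, Pfkfb3 and Slc16a3.

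Levels differed far more between genes than between the genotypes. Per length, in RPKM (CPM per kilobase of the principal transcript), Aldoa was the most abundant at 1887 ± 42.7 RPKM in HET and 1859.7 ± 39.9 RPKM in WT (mean ± SD, n = 4 each, here and below). Eno3 followed at 1036 ± 53.6 and 971 ± 14.6 RPKM in HET and WT, and Ldhb at 945 ± 21.1 and 920.3 ± 44.5 RPKM in HET and WT. The SDs of Eno3 and Ldhb together covered less than the gap between them in HET, while in WT the gap was of the size of 1 SD of Ldhb. At the other end Slc16a3 had 0.365 ± 0.0935 RPKM in HET and 0.406 ± 0.0774 RPKM in WT. By this scale 25 of the 35 genes stood above 90% of all genes tested.

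**Figure D2:**
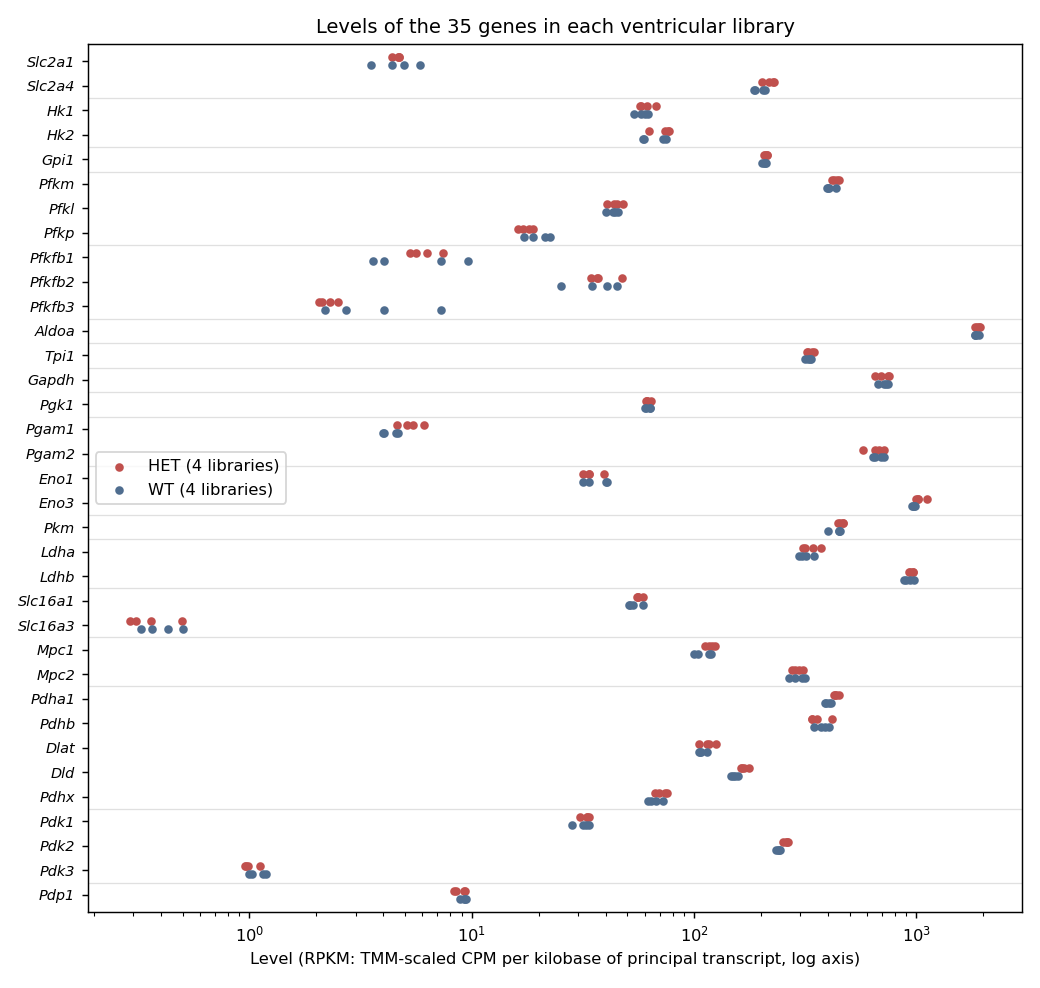
Level of each gene per library in RPKM (x axis, log scale), with HET libraries (red) drawn above WT libraries (blue) and horizontal lines between pathway steps. Isozymes lie far apart in some steps, as for Pgam2 and Pgam1, and close in others, as for Hk1 and Hk2. The 8 libraries of most genes lie close together.

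Most glucose transporter RNA among the members was of Slc2a4, the insulin-responsive transporter GLUT4 of muscle and fat. Transport itself was not measured. The 4 HET libraries held 576, 511, 546 and 571 CPM of Slc2a4, and the 4 WT libraries 515, 473, 471 and 526 CPM. 3 HET libraries lay above every WT library and HET replicate 2 lay within the WT range. The log2 fold change was 0.15 (SE 0.057, unadjusted p = 0.0228, adjusted p = 0.770 by edgeR), and 0.086 with a covariate made from the digits in the sample titles. These digits are unbalanced between the genotypes, here and below. HET replicates 1, 3 and 4 shared theirs with WT replicate 1, and HET replicate 2 with WT replicates 3 and 4. WT replicate 2 stood alone, so it adds nothing to the comparison under that covariate. Slc2a1, the basal transporter GLUT1, was at 15.2, 14.2, 15.4 and 15.3 CPM in HET and at 19.1, 11.4, 14.3 and 16.2 CPM in WT, so the WT libraries enclosed all HET values. Slc2a4 made up 97.4 ± 0.0789% of the pair in HET and 97.1 ± 0.491% in WT, per kilobase of exon.

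The hexokinases, which trap glucose as glucose 6-phosphate, were both expressed. Hk2, the insulin-responsive form of muscle, had 409.6, 344, 427 and 422 CPM in HET and 412, 327, 399 and 323 CPM in WT. Its low values were in HET replicate 2 and in WT replicates 2 and 4, and the groups overlapped (log2 fold change 0.13, 95% interval -0.085 to 0.35, and -0.019 with a covariate made from the digits in the sample titles). Hk1, the form found in most tissues, ran from 219.7 to 259 CPM in HET and from 207 to 239 CPM in WT. Gpi1, which turns glucose 6-phosphate into fructose 6-phosphate, was the steadiest of the 35 genes, with a coefficient of variation of 1.82% over the 8 libraries. Gpi1 had 612, 616, 596 and 598 CPM in HET and 582, 596, 608 and 602 CPM in WT, with overlapping groups.

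RNA of phosphofructokinase, the committed step of glycolysis, was mainly that of the muscle subunit. Pfkm had 1288, 1198, 1229.5 and 1265 CPM in HET and 1157, 1246, 1159 and 1142 CPM in WT. WT replicate 2 lay within the HET range and the other WT libraries below it (log2 fold change 0.083, 95% interval -0.018 to 0.18). The liver subunit gene Pfkl ran from 152 to 179 CPM in HET and from 150.2 to 170.1 CPM in WT. For Pfkp, the platelet-type subunit, the values were 78.4, 70.6, 67.2 and 75.1 CPM in HET and 78.4, 71.2, 92.9 and 88.8 CPM in WT. The log2 fold change was -0.19 (SE 0.084, unadjusted p = 0.0506 and adjusted p = 0.770 by edgeR). All 4 HET values of Pfkp lay below the WT mean, though the groups overlapped.

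The enzymes that make and break fructose 2,6-bisphosphate, the activator of phosphofructokinase, were 3 of the 5 members of largest coefficient of variation over the 8 libraries, at 56.7% for Pfkfb3, 32.2% for Pfkfb1 and 18.4% for Pfkfb2. The others were Slc16a3 at 21.4% and Pgam1 at 14.9%. Pfkfb2, the heart form, had 152, 163, 211 and 161 CPM in HET and 199, 111, 179 and 154 CPM in WT, with HET replicate 3 highest and WT replicate 2 lowest. Pfkfb1, known from liver and skeletal muscle, had 9.72, 11, 9.20 and 13.0 CPM in HET and 6.99, 16.8, 6.23 and 12.6 CPM in WT. WT libraries 1 and 3 held the lowest Pfkfb1 values and WT replicate 2 the highest, so the WT spread enclosed the HET values. Pfkfb3, an inducible form, had 10.7, 9.83, 11.6 and 9.49 CPM in HET and 10.1, 18.7, 33.7 and 12.6 CPM in WT. 2 WT libraries, replicates 2 and 3, stood above the other 6, which held 9.49 to 12.6 CPM. The log2 fold change of Pfkfb3, -0.85 (95% interval -1.76 to 0.055, adjusted p = 0.770 by edgeR), was the most negative of the 35 and moved to -0.41 without WT replicate 3. WT replicate 3 also had the highest summed level of the 5 macrophage markers, 212 CPM against 142 to 161 CPM in the other 7 libraries, and the part of this in the Pfkfb3 values was not tested.

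**Figure D3:**
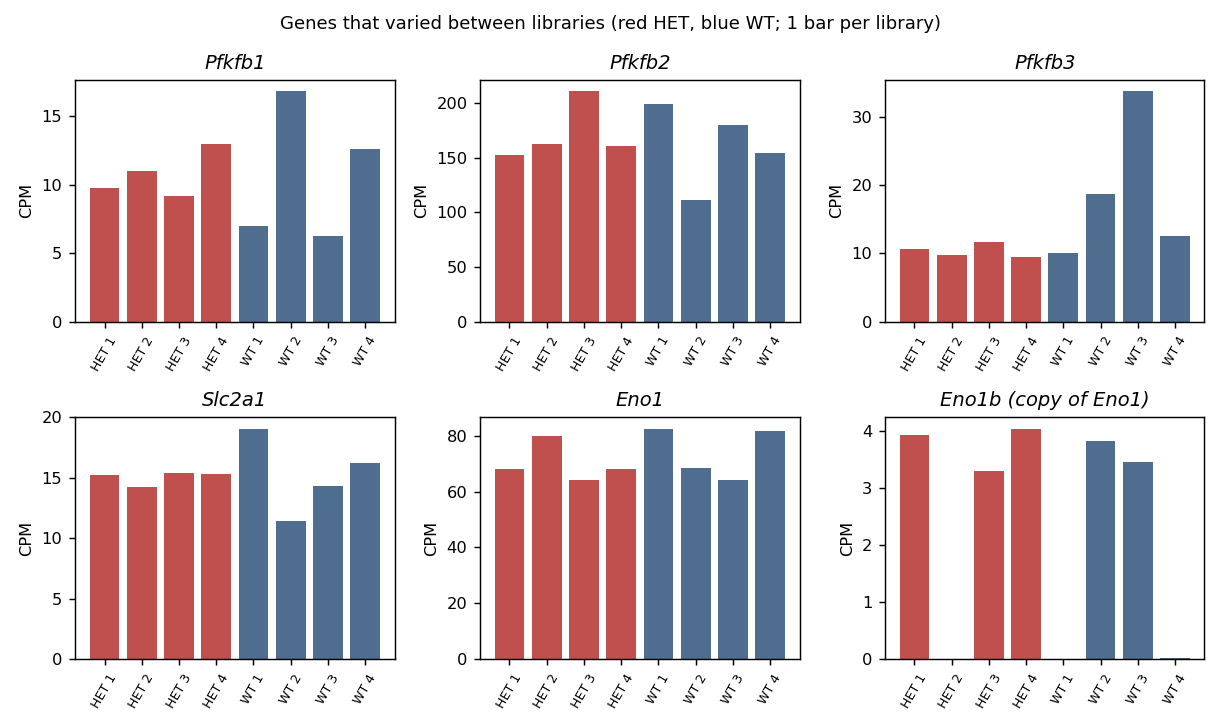
CPM (y axis, from 0) in each library (x axis, red HET and blue WT, 1 bar each) for Pfkfb1, Pfkfb2, Pfkfb3, Slc2a1, Eno1 and the Eno1 copy Eno1b. Pfkfb3 is high in WT replicates 2 and 3, and Eno1 is high in the 3 libraries where Eno1b is at or near 0.

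From aldolase to pyruvate kinase most genes lay at the same level in both genotypes within their spread. Aldoa, which splits fructose 1,6-bisphosphate, had 2916, 2883, 2767 and 2842 CPM in HET and 2797, 2783, 2762 and 2898 CPM in WT. Tpi1, which interconverts the triose phosphates, had 558, 522, 516 and 542 CPM in HET and 532, 522, 504.1 and 538 CPM in WT. Neither gene separated the groups, and the 95% intervals of the log2 fold change were -0.067 to 0.11 for Aldoa and -0.070 to 0.13 for Tpi1. Gapdh, which reduces NAD as it oxidises the triose phosphate, had 1053, 1068, 926 and 981 CPM in HET and 1032, 1058, 957 and 1016 CPM in WT. Pgk1, the first step that yields ATP, had 117, 112, 112 and 111 CPM in HET and 116, 110.1, 115 and 111 CPM in WT. Gapdh and Pgk1 had log2 fold changes near 0, -0.012 and -0.0021, whose sign changed under some settings, and both overlapped between groups. Pkm, pyruvate kinase, had 1083, 1102, 1134 and 1131 CPM in HET and 1089, 1102, 974 and 1085 CPM in WT. WT replicate 3 was the lowest of the 8 for Pkm, and the other 3 WT libraries lay within the HET range (log2 fold change 0.066, 95% interval -0.042 to 0.18, and 0.025 without WT replicate 3).

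As counted, RNA of phosphoglycerate mutase and enolase was almost wholly of the muscle forms, and the minor isozymes were at a small share. Transcripts of other genes matched 43.1% of the Pgam1 and 85.6% of the Eno1 transcript, but 0% of Pgam2 and Eno3, so these shares are uncertain. Pgam2, the muscle mutase, had 602, 549, 481 and 572 CPM in HET and 549, 598, 534 and 579 CPM in WT, with HET replicate 3 lowest. Pgam1, the non-muscle mutase, had 9.09, 9.64, 10.9 and 8.17 CPM in HET and 7.09, 8.10, 7.15 and 8.27 CPM in WT. For Pgam1 3 HET libraries lay above all WT libraries and HET replicate 4 lay just under the highest WT value. Its log2 fold change of 0.30 was the most positive of the 35 (SE 0.10, unadjusted p = 0.0144, adjusted p = 0.770 by edgeR). Per kilobase of exon Pgam2 made up 99.3 ± 0.157% of the pair in HET and 99.4 ± 0.0236% in WT. Eno3, the muscle enolase (ENSMUSG00000060600, chromosome 11, 70657202 to 70662513, plus strand, GRCm38), had 1743, 1553, 1590.0 and 1597 CPM in HET and 1505, 1525, 1495 and 1547 CPM in WT. The HET libraries lay above all WT libraries, with HET replicate 2 and WT replicate 4 nearest to each other, and HET replicate 1 was the highest (log2 fold change 0.095, SE 0.046, unadjusted p = 0.0664, adjusted p = 0.770 by edgeR). It was 0.058 without HET replicate 1 and 0.052 with library-size scaling. Over library totals without TMM scaling, the groups of Eno3 overlapped.

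Eno1, the enolase of most other tissues, split the libraries in a way that followed a near-identical copy and not the genotype. Eno1 had 68.2, 80.0, 64.2 and 68.1 CPM in HET and 82.5, 68.4, 64.1 and 81.8 CPM in WT. Eno1b, a copy that matches a stretch of 1736 bases of the Eno1 transcript at 95% identity or more, had 3.92, 0, 3.31 and 4.04 CPM in HET and 0, 3.82, 3.46 and 0.0256 CPM in WT. In the 3 libraries with Eno1b at 1 count or less, HET replicate 2 and WT replicates 1 and 4, Eno1 stood at 80.0 to 82.5 CPM. In the other 5 libraries Eno1b held 124 to 152 counts and Eno1 stood at 64.1 to 68.4 CPM. The split was noticed in the values, and its part in the Eno1 comparison between genotypes was not tested.

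Near-identical copies bear on several other members, since it was not stated how reads that match more than 1 place were counted. Of the 35 principal transcripts 15 had a match of at least 100 bases at 95% identity or more in the transcript of another gene, and for 11 at least 1 of these genes was a pseudogene. Gapdh matched 81 other genes over 88.0% of its transcript, Eno1 85.6%, Ldhb 76.8%, Pdhb 71.2%, Pgk1 68.8% and Pkm 65.5%. The levels of these genes relative to others are therefore uncertain, and those of Pgam1 (43.1% matched), Ldha (56.6%), Mpc1 (59.0%) and Gpi1 (55.3%) likewise. Pdha1 shared a stretch of 426 bases with Map3k15 and Pfkp one of 748 bases with Pitrm1. Both partners are protein-coding genes on the same chromosome as the member, X and 13. The search compared sequences without positions, so it did not tell a copy from a gene that overlaps at the same place.

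Lactate dehydrogenase RNA was mostly that of the heart subunit. Ldhb, the subunit known to favour lactate oxidation, had 1255, 1201, 1219 and 1256 CPM in HET and 1166, 1273, 1143 and 1219 CPM in WT. Ldha, the subunit of skeletal muscle, had 657, 602, 547 and 555 CPM in HET and 523, 609.7, 564 and 538 CPM in WT, with HET replicate 1 and WT replicate 2 the highest of their groups. Both genes overlapped between groups, with log2 fold changes of 0.039 (95% interval -0.063 to 0.14) for Ldhb and 0.079 (-0.074 to 0.23) for Ldha, and that of Ldhb was -0.0027 with library-size scaling. The share of Ldhb in the pair was 81.5 ± 1.25% in HET and 81.9 ± 0.795% in WT per kilobase of exon. Slc16a1, the carrier MCT1 that moves lactate and pyruvate across the cell membrane, had 247, 246, 262 and 249 CPM in HET and 236, 226, 261 and 229 CPM in WT. Among WT libraries replicate 3 alone reached the HET range of Slc16a1 (log2 fold change 0.077, SE 0.055, unadjusted p = 0.191, adjusted p = 0.783 by edgeR). Slc16a3, the lactate exporter MCT4 of glycolytic cells, was barely detected, with 1.56, 1.34, 2.16 and 1.26 CPM in HET and 1.59, 1.41, 1.86 and 2.18 CPM in WT, 43 to 85 counts a library.

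Among the 7 genes of pyruvate entry, which are the carrier and the subunits of the dehydrogenase complex, 2 (28.6%) had groups apart with HET higher. Of all genes tested 1.7% did so, and of the genes at 100 CPM or more, as these 7 are by their mean, 4.96%. In the other steps the count was 1 of 4 for control of the complex and 1 of 9 from aldolase to pyruvate kinase. It was 0 for glucose entry and first steps, for phosphofructokinase and its control, and for lactate. Mpc1 and Mpc2 form the carrier of the inner mitochondrial membrane. Mpc2 had 303, 318, 281 and 290.3 CPM in HET and 289.9, 315, 275 and 322 CPM in WT, and Mpc1 ran from 107 to 119 CPM in HET and from 95.7 to 114 CPM in WT. Neither separated the groups, with log2 fold changes of -0.0100 and 0.11 and, for Mpc2, a sign that changed under some settings.

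In the pyruvate dehydrogenase complex, Pdha1 (E1 alpha, the catalytic subunit that the kinases phosphorylate; ENSMUSG00000031299, chromosome X, 160122209 to 160138413, minus strand, GRCm38) had 1234, 1219, 1272 and 1211 CPM in the 4 HET libraries and 1119, 1178, 1151 and 1099 CPM in the 4 WT libraries. All HET values lay above all WT values, and the HET level was 109% of that in WT (95% interval 102% to 116%). The log2 fold change was 0.12, and 0.076 with library-size scaling (unadjusted p = 0.0167 and adjusted p = 0.770 by edgeR with TMM). Over library totals without TMM scaling, HET replicate 4 fell just under WT replicate 3, so the groups of Pdha1 overlapped. Dld (E3, the lipoamide dehydrogenase that the complex shares with others; ENSMUSG00000020664, chromosome 12, 31331277 to 31351453, minus strand, GRCm38) had 419, 415, 427 and 447 CPM in HET and 403, 388, 371 and 379 CPM in WT. Again the groups were apart, the HET level was 111% of that in WT (95% interval 103% to 119%), and the unadjusted p of 0.00796 was the smallest of the 35 (adjusted p = 0.770 by edgeR). Pdhb, the E1 beta partner of Pdha1, had a negative log2 fold change and overlapping groups, from 511 to 634 CPM in HET and from 522 to 614 CPM in WT (-0.053, 95% interval -0.22 to 0.12). Dlat (E2) and Pdhx (the E3-binding protein) had overlapping groups and log2 fold changes of 0.090 (SE 0.058) and 0.11 (SE 0.062). With the covariate made from title digits these were 0.019 and 0.018, with library-size scaling 0.047 and 0.064, and Dlat was 0.048 without HET replicate 1. Per length the subunits were ordered Pdha1, Pdhb, Dld, Dlat and Pdhx, at 433 ± 9.56, 363 ± 38.3, 168 ± 5.56, 115 ± 8.2 and 71.4 ± 4.20 RPKM in HET, and at 399 ± 12.3, 377 ± 25.8, 151 ± 5.33, 108 ± 4.25 and 66.3 ± 4.46 RPKM in WT. The gap between Pdha1 and Pdhb in WT was under the SD of Pdhb, and Pdhb had the largest SD of the 5 in both groups.

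Of the 3 kinases among the 35 genes, which switch the complex off, Pdk2 was the most abundant per length, at 258 ± 4.64 RPKM in HET and 239 ± 3.64 RPKM in WT. Pdk2 (ENSMUSG00000038967, chromosome 11, 95026258 to 95041354, minus strand, GRCm38) had 591, 567, 585 and 579.6 CPM in HET and 546, 541, 535 and 527 CPM in WT. All 4 HET libraries lay above all WT libraries, at 108% of the WT level (95% interval 102% to 115%, unadjusted p = 0.0169, adjusted p = 0.770 by edgeR). The log2 fold change of Pdk2 was 0.11, and 0.069 with library-size scaling. Pdk1, known as a target of hypoxia signalling, ran from 159 to 175 CPM in HET and from 146 to 175 CPM in WT, and Pdk3 from 2.03 to 2.37 CPM in HET and from 2.10 to 2.51 CPM in WT. Pdp1, the phosphatase that switches the complex back on, had 38.6, 39.3, 34.9 and 35.6 CPM in HET and 38.6, 39.7, 39.1 and 37.0 CPM in WT, with overlapping groups (log2 fold change -0.058, 95% interval -0.18 to 0.061). Pdk4, the fasting-induced kinase of the same step, is not among the 35 genes. It averaged 748 ± 379.8 CPM in HET and 879.9 ± 225 CPM in WT (SD, n = 4 each), with 315, 1032, 544 and 1099 CPM in HET and 739.8, 662, 959 and 1159 CPM in WT. The lowest and second lowest Pdk4 values were in HET replicates 1 and 3, while HET replicates 2 and 4 lay with the highest WT libraries.

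**Figure D4:**
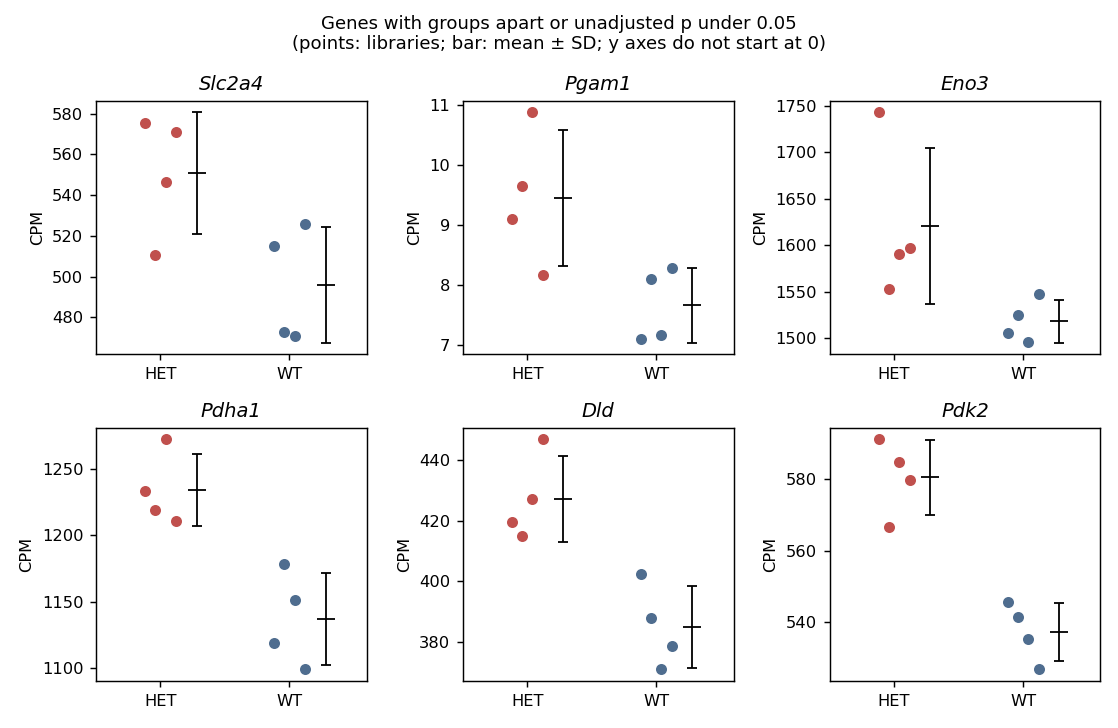
CPM (y axes, which do not start at 0) of the 6 genes with groups apart or an unadjusted p under 0.05, for the 4 HET libraries (red) and the 4 WT libraries (blue), with mean ± SD beside the points. Eno3, Pdha1, Dld and Pdk2 show no overlap, while in Slc2a4 and Pgam1 1 HET library lies within the WT range.

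The promoters of the 4 genes whose groups lay apart are shown because, with TMM scaling, these are the members that stood higher in every HET library. Each window runs from 250 bases before to 50 after the RefSeq start (GRCm38.p6), on the gene's own strand, with matches to any of 6 motifs in capitals.
Eno3, chr11:70656926-70657225, plus strand: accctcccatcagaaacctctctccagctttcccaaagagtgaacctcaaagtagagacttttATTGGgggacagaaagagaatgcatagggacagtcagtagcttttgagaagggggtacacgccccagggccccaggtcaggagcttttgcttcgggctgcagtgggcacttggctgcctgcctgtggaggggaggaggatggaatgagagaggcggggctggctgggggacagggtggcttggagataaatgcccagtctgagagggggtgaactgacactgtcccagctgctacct
Pdha1, chrX:160138381-160138680, minus strand: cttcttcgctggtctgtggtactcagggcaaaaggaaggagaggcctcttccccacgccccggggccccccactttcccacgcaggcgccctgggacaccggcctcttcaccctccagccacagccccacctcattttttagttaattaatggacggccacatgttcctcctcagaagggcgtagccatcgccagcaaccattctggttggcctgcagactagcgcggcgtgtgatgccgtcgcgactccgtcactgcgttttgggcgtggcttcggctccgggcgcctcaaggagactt
Dld, chr12:31351422-31351721, minus strand: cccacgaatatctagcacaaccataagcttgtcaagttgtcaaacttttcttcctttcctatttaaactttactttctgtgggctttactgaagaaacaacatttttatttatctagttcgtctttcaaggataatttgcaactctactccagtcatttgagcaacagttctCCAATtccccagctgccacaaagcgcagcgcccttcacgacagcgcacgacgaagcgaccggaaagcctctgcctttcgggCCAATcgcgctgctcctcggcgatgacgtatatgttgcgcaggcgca
Pdk2, chr11:95041322-95041621, minus strand: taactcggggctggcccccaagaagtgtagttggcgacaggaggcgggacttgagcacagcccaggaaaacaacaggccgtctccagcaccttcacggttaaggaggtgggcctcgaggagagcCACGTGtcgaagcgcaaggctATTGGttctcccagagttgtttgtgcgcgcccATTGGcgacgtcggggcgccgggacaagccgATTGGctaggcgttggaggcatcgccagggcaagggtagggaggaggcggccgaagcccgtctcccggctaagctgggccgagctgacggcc
The motifs were searched on both strands. The E-box CACGTG holds within it the core ACGTG on each strand. The GC box was GGGCGG and the NF-Y box CCAAT, printed as ATTGG where it lies on the other strand. The last pair were the nuclear receptor element AAGGTCA and the MEF2 motif. In capitals stand 1 CCAAT match in Eno3, 2 in Dld and 3 in Pdk2, which also holds a CACGTG, while the Pdha1 window has no match. CCAAT occurred in 37.4% of the 32851 windows searched, which leave out 1 chromosome, and in 16 of the 33 members with a window. A member counted with 1 window, the nearest to its annotated start, while the background held every window of a gene, so the figures are not strictly alike. The shares over the windows searched were 7.15% for CACGTG, 19.6% for ACGTG, 35.7% for GGGCGG, 4.72% for AAGGTCA and 3.19% for MEF2. The members with a match numbered 4, 13, 21, 2 and 1 in the same order. A match is a string of letters and no evidence of binding.

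The balance between isozymes or subunits was compared in 12 families or pairs, and the HET and WT libraries overlapped in each. These shares do not depend on how library sizes are scaled. They may depend on how reads that match near-identical copies were counted, which was not stated. The adjusted p-values ran from 0.419 to 0.543 (exact two-sided permutation tests over 70 splits, Benjamini-Hochberg over the 12 shares), and the smallest unadjusted value was 0.0571, for Pgam2. The smallest p this design allows is 0.0286, so a single share with groups apart could not have passed the adjustment over 12, and the tests do not show that the shares were alike. Hk2 made up 70.9 ± 1.86% of hexokinase in HET and 69.7 ± 2.51% in WT, and Pfkm 92.5 ± 0.258% of phosphofructokinase in HET and 92.0 ± 0.723% in WT. For Pfkfb2 the share was 85.2 ± 2.20% in HET and 80.4 ± 8.27% in WT, and WT replicate 2, at 69.8%, stood below the other 7 libraries. Eno3 made up 98.6 ± 0.175% of enolase in HET and 98.4 ± 0.184% in WT, Slc16a1 99.5 ± 0.116% and 99.4 ± 0.119% of the lactate transporters, and Pdk2 89.1 ± 0.196% and 88.6 ± 0.707% of the sum of Pdk1, Pdk2 and Pdk3, in HET and WT. The share of Pdk2 leaves out Pdk4, whose level is given above, and is not its share of all kinases of the complex. Among subunits, Pdha1 made up 69.9 ± 2.48% of the E1 pair in HET and 67.3 ± 2.10% in WT, and Dlat 67.6 ± 0.509% of its pair with Pdhx in HET and 67.9 ± 0.743% in WT. The share of Mpc2 rests on the length used, at 42.7 ± 1.5% in HET and 44.7 ± 2.21% in WT per kilobase of all annotated exons, and 71.0 ± 1.26% in HET and 72.7 ± 1.76% in WT per kilobase of the principal transcript. With the length of the principal transcript, a choice made after the data were seen, the shares of Hk2 and Pdha1 were 54.4 ± 2.25% and 54.5 ± 2.88% in HET and 53.0 ± 2.95% and 51.5 ± 2.4% in WT.

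**Figure D5:**
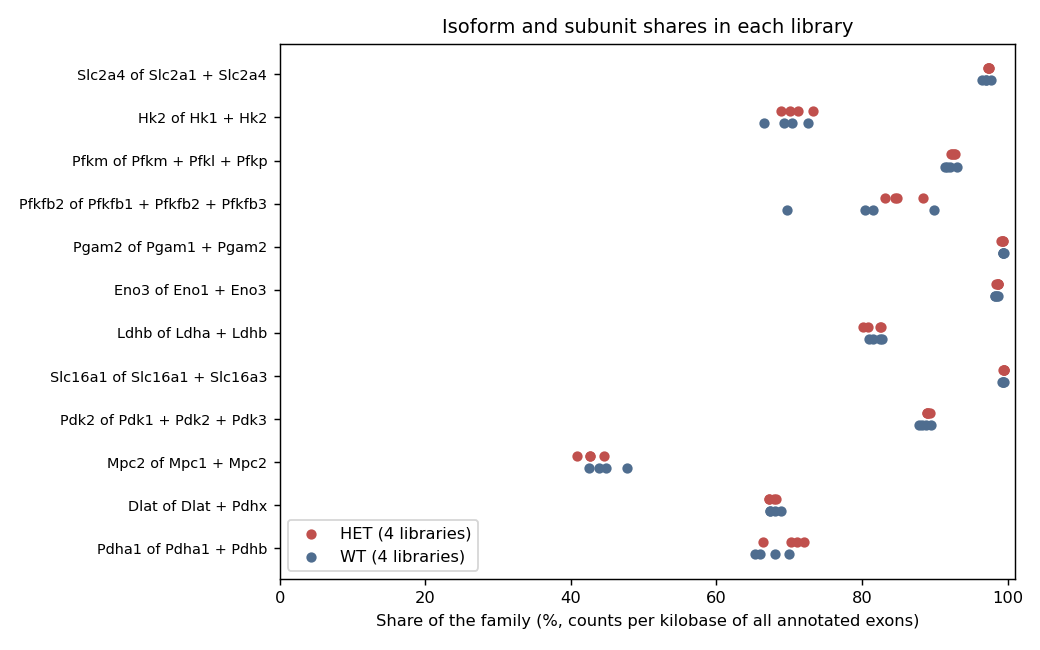
Share of 1 gene in its family or pair (x axis, %, per kilobase of all annotated exons) in each HET library (red) and WT library (blue) for 12 families. The groups overlap in every row, and the widest spread is that of Pfkfb2 in WT.

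Of 50 other genes of glucose and pyruvate metabolism that were listed, 42 were tested, 24 had a positive and 18 a negative log2 fold change (median 0.022), and 0 passed the test in each direction by edgeR. At an unadjusted p under 0.05, 2 had the higher and 2 the lower mean in HET, where 2.75% and 3.63% of all genes tested did, and 0 had groups apart. These 4, named after their values were seen, were Tigar, a fructose 2,6-bisphosphatase (0.12), Bpgm, bisphosphoglycerate mutase (0.14), Tkt, the transketolase of the pentose phosphate pathway (-0.22), and Pck2, the mitochondrial phosphoenolpyruvate carboxykinase (-0.25), given as log2 fold changes of HET over WT.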

How the data were processed

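Poly(A) RNA of mouse ventricle was sequenced from stranded TruSeq libraries, per the labels' protocols. STAR 2.4.2a, HTSeq 0.6.1 and GRCm38 are named in the submitters' processing notes. The strand setting and the annotation release are not given in the sources used here. The authors deposited raw counts per gene. Rows were tested after filterByExpr with TMM scaling and edgeR 4.0.16's robust quasi-likelihood fit (HET over WT, 4 libraries each), and p-values were adjusted over all 14567 genes by Benjamini-Hochberg. Fold changes are log2 values of HET over WT. RPKM was computed as scaled CPM per kilobase of the principal GENCODE M21 transcript. The shares of isozymes used exact permutation tests. The fit was tested on simulated data. The alternatives were other scalings, no filter, DESeq2 1.42.0, limma-voom (limma 3.58.1), a covariate and leaving out each library. The members, lists and tests were chosen with earlier results of these data known. Genes described with a value in every library were, by rule, the most abundant of each step, those of smallest p and those of greatest variation, and others were added after values were seen.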

Additional observations from a re-analysis of the deposited data

Results flagged for a closer look

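In 4 of the 94 groups of 4 libraries checked, 1 library stood far from the other 3, and chance alone does so in about 1 of 20 groups. The HET replicate 2 library had 14.2 CPM of Slc2a1, where the other HET libraries held 15.2 to 15.4 CPM. The same library had 2.37 CPM of Pdk3, where the other HET libraries held 2.03 to 2.08 CPM. For Pfkm, WT replicate 2 had 1246 CPM and the other WT libraries 1142 to 1159 CPM. For Pkm, WT replicate 3 had 974 CPM and the other WT libraries 1085 to 1102 CPM.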

How the results depend on the processing

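No member passed the test under any alternative tried, and the smallest adjusted p of a member was 0.249. Of the 525 fold changes of members recomputed under alternatives, 486 kept their sign and 39 changed it, in 14 members. With library-size scaling the median over members was -0.0027, and the log2 fold changes were -0.022 for Gpi1, -0.0084 for Pfkl, -0.026 for Pfkfb1, -0.021 for Aldoa, -0.013 for Tpi1 and -0.0027 for Ldhb. The digits in the sample titles are unbalanced between the genotypes. With a covariate made from them the median was 0.0195. The values were then -0.019 for Hk2, -0.024 for Pfkl, -0.12 for Pfkfb2, 0.0195 for Gapdh and 0.048 for Mpc2. Pgk1 stood at 0.0011 with RLE scaling, 0.0013 without a filter, 0.0012 with DESeq2 and 0.0012 with limma-voom. All genes called numbered 2 without the filter on low counts and 13 with DESeq2. The cause of these shifts was not tested. Values of members that moved by over 1.5 times without a change of sign include, with library-size scaling, 0.041 for Pfkm, 0.033 for Slc16a1, 0.066 for Mpc1, 0.013 for Hk1 and 0.037 for Ldha. Without WT replicate 3, Slc16a1 was 0.12 and Mpc1 0.062, and without HET replicate 1 Ldha was 0.025. Leaving out each library in turn gave 1 to 3 genes called of all tested, a median over members of 0.027 to 0.070 and 22 to 26 positive members. Over these fits the log2 fold change ran from -0.14 to 0.11 for Slc2a1, -0.0044 to 0.075 for Pfkl, -0.18 to 0.32 for Pfkfb1, -0.047 to 0.22 for Pfkfb2, -0.042 to 0.026 for Gapdh, -0.018 to 0.014 for Pgk1, -0.081 to 0.024 for Pgam2, -0.053 to 0.025 for Mpc2 and -0.0025 to 0.080 for Pdk1. The difference in share, in percentage points, ran from -0.795 to 0.0562 for Ldhb and from -0.490 to 0.0447 for Dlat. Without 1 library the smallest p that the share tests allow is again 0.0286, so a single share could not have passed the adjustment over 12. No share passed in those fits (smallest adjusted p = 0.171, exact permutation test), and their p-values say nothing about stability. No paired analysis was possible because replicate numbers were given in order of deposition and pair no samples. Pgam1, Slc16a3 and the other members of low level rest on the fewest counts.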

Other observations

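Over the 8 libraries Pfkfb1 and Pfkfb2 ran opposite to each other, with Pearson's r = -0.78 (exact permutation p = 0.0211, adjusted 0.211 over 10 pairs of the most variable members) and Spearman's rho = -0.74 (exact permutation p = 0.0458, adjusted 0.458). Without WT replicates 2 and 3, r was -0.71. Neither value passed the adjustment.

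Gm1840, a processed pseudogene that matches 1046 bases of the Gpi1 transcript, stood at 10.6 to 11.3 CPM in HET replicates 3 and 4 and WT replicates 1 and 4. It stood at 3.47 to 4.35 CPM in HET replicates 1 and 2 and WT replicates 2 and 3. Gpi1 itself varied little over the same libraries, from 596 to 616 CPM in HET and from 582 to 608 CPM in WT.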
